A study of Rattus norvegicus with 21 samples.

Results

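The comparison set the liver of rats given 122.5 mg/kg of 2-ethylhexyl diphenyl phosphate (EHDP, spelled EDHP in the sample labels), an aryl alkyl organophosphate added to plastics to soften them and slow burning, against the liver of vehicle rats. Its members were chosen by the dose in the sample title, which gave 3 arrays at 122.5 mg/kg and 6 vehicle arrays, 9 of the 21 arrays of the series. All groups were male Harlan Sprague-Dawley rats dosed by oral gavage in corn oil on 4 consecutive days, and the left liver lobe was sampled. The vehicle rats received corn oil with no EHDP. The protocol rounds the dose to 123 mg/kg, equal to 0.338 mmol/kg, and speaks of 5 vehicle rats. The labels place 6 arrays at dose 0, and each of them was kept as vehicle. The other groups had 3 arrays each at 61.2, 244.6, 489.2 and 978.5 mg/kg. The question was which liver genes differed from vehicle at this dose, the next to lowest of the series.

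The liver clears foreign lipophilic compounds in steps. Esterases, cytochromes P450 and other oxidising enzymes open or oxidise the molecule, transferases attach glutathione, glucuronic acid or sulfate, and ATP-driven pumps carry the conjugates out of the cell. Many of these genes are switched on by the nuclear receptors CAR and PXR, and an overlapping group by NRF2, a transcription factor that responds to electrophiles and binds the antioxidant response element.

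Signals were log2 RMA values of 1 probe set per gene for 14218 genes, so a difference of 1 is a doubling. Array medians lay between 6.33 and 6.41, and over all genes the SD between arrays had a median of 0.124 at 122.5 mg/kg and 0.135 in vehicle. Vehicle replicate 6 had the lowest mean correlation with the other arrays, 0.987, against 0.994 for the highest array. The hepatocyte gene Alb, albumin, had a mean of 15.35 at 122.5 mg/kg and 15.34 in vehicle. Summed over its 16 measured members, the hepatocyte marker list ran from 18.16 to 18.22 at 122.5 mg/kg and from 18.16 to 18.26 in vehicle, on the log2 scale.

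At 122.5 mg/kg 16 genes rose and 0 fell (limma, Benjamini-Hochberg adjusted p below 0.05 over all genes, called below), which is 0.113% of the genes tested. Without adjustment 862 genes, 6.06%, had a p below 0.05, 454 of them higher and 408 lower. Of the 16 called genes 5 rose at least 2-fold and 11 at least 1.5-fold. They comprised 4 glutathione transferases, the carboxylesterase Ces2c, the cytochrome P450 Cyp3a23-3a1, the glucuronosyltransferase Ugt2b1, the epoxide hydrolase Ephx1, the aldehyde-handling enzymes Akr7a3, Aldh1a1 and Aox1, the conjugate pump Abcc3, and Cryl1, Ddc, Slc22a18 and Nmrk1. In every one of the 16 all 3 arrays at 122.5 mg/kg lay above all 6 vehicle arrays, an arrangement that 3.05% of all genes showed in one direction or the other. The genes were called on these same arrays, so the gap is no separate support for the calls. The called genes were mostly abundant: their median level over all arrays was 12.34 against 7.52 over all genes, and 11 of the 16 were above the 90th percentile of level.

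**Figure D1:**
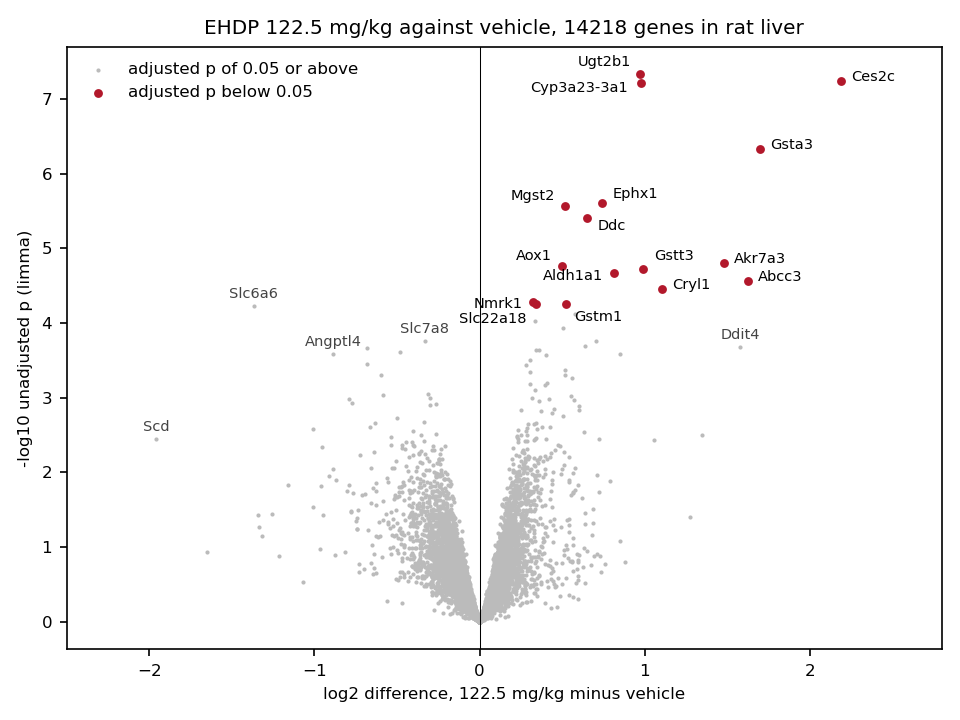
Log2 difference of 122.5 mg/kg minus vehicle (horizontal axis) against -log10 of the unadjusted limma p (vertical axis) for 14218 genes, with the 16 called genes in red. All red points lie right of 0, and Slc6a6 on the left has the smallest p among the genes that were lower.

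The number of calls rested on single arrays. It was 4 without 122.5 mg/kg replicate 3, all higher, and 6 without replicate 2, of which 1 was lower. It was 17 without replicate 1, of which 1 was lower and 12 were among the 16 genes above. Leaving out vehicle replicates 1, 2, 3, 5 and 6 in turn gave 10, 8, 7, 7 and 7 calls, and leaving out vehicle replicate 4 gave 16. Ces2c, Gsta3, Cyp3a23-3a1 and Ugt2b1 were called in each of these 9 fits, with highest adjusted p-values (limma) of 0.00686, 0.0453, 0.00696 and 0.00696.

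Promoters are shown for the called genes in which a searched motif was found, since PXR and NRF2 have known recognition sequences. The table of RefSeq promoters (GRCr8, 250 bases before to 50 bases after a start) held 18 promoters of 14 of the 16 called genes. The planned motif was the E-box, CACGTG, to which clock factors bind. It was to be shown only where a clock gene was called, and none was, so its count is given as a description alone. The PXR and NRF2 motifs were added after the called genes were seen, and both strands were searched. A PXR half-site repeated with 3 bases between, AGTTCANNNAGTTCA, was present in 2 of 33469 promoters, 0.00598%, 1 of them that of Cyp3a23-3a1. Only these exact letters were searched, and they were chosen with Cyp3a23-3a1 already known as called. The low share is therefore no support for a part of PXR. It is in capitals here in the sequence of the gene's strand, where it reads as the reverse complement of the motif, chr12:14398754-14399053 on the minus strand.
The E-box was present in 6.42% of the promoters and, among the called genes, in that of Cyp3a23-3a1 alone, 103 to 98 bases before the start and not in capitals.
Cyp3a23-3a1: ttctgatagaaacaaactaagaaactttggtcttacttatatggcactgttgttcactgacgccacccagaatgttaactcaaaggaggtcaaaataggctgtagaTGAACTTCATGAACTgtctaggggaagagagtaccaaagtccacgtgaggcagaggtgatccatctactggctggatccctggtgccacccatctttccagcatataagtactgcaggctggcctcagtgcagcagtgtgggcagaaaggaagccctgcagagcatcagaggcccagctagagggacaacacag
The core of the antioxidant response element, TGACNNNGC, was present in 12.1% of all promoters. It was in 2 of the 18 promoters of called genes, close to the share over all promoters. They were those of Ephx1 (as the reverse complement) and Gsta3, where it is in capitals. The table held 2 starts for Ephx1, and the match lay at the one inside the gene, chr13:95263068-95263367 on the minus strand, not at the outer one. The Gsta3 promoter is chr9:31154739-31155038 on the plus strand.
Ephx1: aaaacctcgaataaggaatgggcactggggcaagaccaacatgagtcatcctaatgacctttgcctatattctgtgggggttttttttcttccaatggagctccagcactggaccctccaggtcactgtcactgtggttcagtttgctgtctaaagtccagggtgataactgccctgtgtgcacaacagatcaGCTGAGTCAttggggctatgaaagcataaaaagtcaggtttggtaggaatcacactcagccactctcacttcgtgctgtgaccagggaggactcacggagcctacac
Gsta3: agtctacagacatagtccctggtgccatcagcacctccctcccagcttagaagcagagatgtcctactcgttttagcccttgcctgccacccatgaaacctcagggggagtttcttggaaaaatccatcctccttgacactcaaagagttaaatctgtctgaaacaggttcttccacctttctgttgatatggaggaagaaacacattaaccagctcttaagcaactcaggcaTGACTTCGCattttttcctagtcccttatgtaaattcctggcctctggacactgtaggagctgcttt
The matches lay 144 to 130 bases before the start in Cyp3a23-3a1, 57 to 49 bases before it in Ephx1 and 17 to 9 bases before it in Gsta3. Binding was not measured, and a match of letters describes only this window.

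Ces2c, a carboxylesterase that hydrolyses esters and amides of foreign compounds, had the largest difference of the called genes. Its log2 signal was 11.51, 11.04 and 10.96 at 122.5 mg/kg, against a lowest, median and highest value of 8.52, 9.12 and 9.21 in vehicle. The groups were far apart, and replicate 1 was the highest treated array, unlike in most other called genes. The mean was 11.17 ± 0.30 at 122.5 mg/kg (SD, n = 3) and 8.99 ± 0.28 in vehicle (SD, n = 6), a rise of 2.19 ± 0.26 (SE) or 4.55-fold (limma adjusted p = 0.000292). Among the 12 measured esterases Ces2c was the only one called, and the list's median difference was -0.02. The probe table gave no single-gene probe set for the other Ces2 members on the list, so their part in this signal was not tested.

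Cyp3a23-3a1, a cytochrome P450 that oxidises many drugs and steroids and a classical PXR target in rat, was among the most abundant transcripts measured. It read 14.16, 14.26 and 14.28 at 122.5 mg/kg, against 13.11, 13.26 and 13.44 as the lowest, median and highest vehicle values. The treated arrays lay close together, with an SD of 0.06, and all were above vehicle. It rose by 0.98 ± 0.12 (SE), 1.97-fold (limma adjusted p = 0.000292). Cyp3a18, a related enzyme, read 13.43, 13.72 and 13.68 at 122.5 mg/kg against 12.85 to 13.26 in vehicle, a difference of 0.52 that was not called (limma adjusted p = 0.189).

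Ugt2b1 joins glucuronic acid to phenols and steroids. It read 13.73, 13.76 and 13.81 at 122.5 mg/kg, against 12.46, 12.74 and 13.10 as the lowest, median and highest vehicle values. The groups did not overlap, and the vehicle arrays were spread over a wider range than the treated ones. Ugt2b1 rose by 0.97 ± 0.11 (SE), 1.96-fold (limma adjusted p = 0.000292). The family members Ugt2b10 and Ugt2b15 differed by 0.30 each and were not called (limma adjusted p = 0.631 for both), and Ugt2b1 was the only call among 21 measured genes of glucuronidation and sulfation, whose median difference was 0.01.

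Of the 19 measured glutathione transferases, which attach glutathione to electrophiles, 4 rose, against 0.113% of all genes called. An unadjusted p below 0.05 was found in 13, against 6.06% of all genes. Every measured member had a difference above 0, with a median of 0.36 against -0.0025 over all genes. Gsta3, an alpha-class enzyme, read 9.23, 9.66 and 10.29 at 122.5 mg/kg, against 7.54, 8.03 and 8.39 as the lowest, median and highest vehicle values. Its treated arrays differed from each other by about 1 but all exceeded vehicle. Gsta3 rose by 1.70 ± 0.23 (SE), 3.24-fold (limma adjusted p = 0.00165). Gstt3, a theta-class enzyme, read 11.77, 12.24 and 12.42 at 122.5 mg/kg, against 10.70 to 11.48 in vehicle, and rose by 0.99 (limma adjusted p = 0.0267). Mgst2, a microsomal enzyme, read 12.46, 12.48 and 12.61, against 11.88 to 12.09 in vehicle, and rose by 0.52 (limma adjusted p = 0.00639). Gstm1, a mu-class enzyme, read 14.18, 14.10 and 14.23, against 13.45 to 13.90 in vehicle, and rose by 0.52 (limma adjusted p = 0.0498). Without 122.5 mg/kg replicate 3 the adjusted p became 0.401 for Gstt3, 0.135 for Mgst2 and 0.429 for Gstm1. Cross-hybridisation between transferases of similar sequence was not tested.

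Enzymes that handle epoxides and aldehydes formed the next group. Ephx1, microsomal epoxide hydrolase, read 13.47, 13.65 and 13.83 at 122.5 mg/kg, against 12.64, 12.90 and 13.20 as the lowest, median and highest vehicle values. It rose by 0.74 ± 0.11 (SE), 1.67-fold (limma adjusted p = 0.00639). Akr7a3, an aldo-keto reductase that reduces aflatoxin aldehydes, read 12.29, 12.79 and 13.42 at 122.5 mg/kg, against 11.20, 11.26 and 11.81 in vehicle. Most vehicle arrays sat close together, and vehicle replicate 4 stood alone at 11.81, still under the lowest treated array. Akr7a3 rose by 1.48 ± 0.26 (SE), 2.79-fold (limma adjusted p = 0.0267). Aldh1a1, which oxidises retinal and other aldehydes, read 13.03, 13.19 and 13.47 at 122.5 mg/kg against 12.10 to 12.74 in vehicle, a rise of 0.81 (limma adjusted p = 0.0279). Aox1, a molybdenum enzyme that oxidises aldehydes and N-heterocycles, read 12.82, 12.97 and 13.05 against 12.24 to 12.61 in vehicle, a rise of 0.50 (limma adjusted p = 0.0267). In these enzymes replicate 1 was the lowest and replicate 3 the highest treated array. Without replicate 3 the adjusted p became 0.135 for Ephx1, 0.401 for Akr7a3, 0.413 for Aldh1a1 and 0.358 for Aox1.

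Abcc3, a pump of the blood-facing hepatocyte membrane that exports glucuronides, read 8.27, 8.37 and 9.02 at 122.5 mg/kg, against 6.65, 6.94 and 7.24 as the lowest, median and highest vehicle values. The groups did not overlap, and replicate 3 was the highest treated array. Abcc3 rose by 1.62 ± 0.30 (SE), 3.08-fold (limma adjusted p = 0.0323), the only call among 25 measured drug and conjugate transporters, whose median difference was 0.01. The call was kept in 1 of the 9 fits without an array, and the adjusted p was 0.429 without 122.5 mg/kg replicate 3. Abcb1a, a P-glycoprotein gene, had a mean of 7.67 ± 0.15 at 122.5 mg/kg and 7.13 ± 0.36 in vehicle (SD) and was not called (limma adjusted p = 0.631).

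Cryl1, an enzyme of the route that oxidises L-gulonate, read 9.47, 9.77 and 10.28 at 122.5 mg/kg, against 8.37, 8.74 and 9.15 as the lowest, median and highest vehicle values. It rose by 1.11 ± 0.21 (SE), 2.15-fold (limma adjusted p = 0.0386). Ddc, aromatic L-amino acid decarboxylase, read 10.56, 10.85 and 10.67 at 122.5 mg/kg against 9.81 to 10.24 in vehicle. It rose by 0.65 (limma adjusted p = 0.00793) on its brighter probe set, while its dimmer probe set, with a vehicle mean of 6.48, differed by 0.03. Slc22a18, an organic cation transporter-like protein, read 12.43, 12.47 and 12.40 at 122.5 mg/kg against 12.03 to 12.15 in vehicle. Nmrk1, nicotinamide riboside kinase, read 6.78, 6.80 and 6.72 against 6.39 to 6.48 in vehicle. Slc22a18 and Nmrk1 had the smallest rises of the called genes, 0.34 and 0.32 (limma adjusted p = 0.0498 for both), and lost the call whichever single array was left out. Without 122.5 mg/kg replicate 3 the adjusted p of Cryl1 was 0.481, and without replicate 2 that of Ddc was 0.169, of Slc22a18 0.319 and of Nmrk1 0.317.

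**Figure D2:**
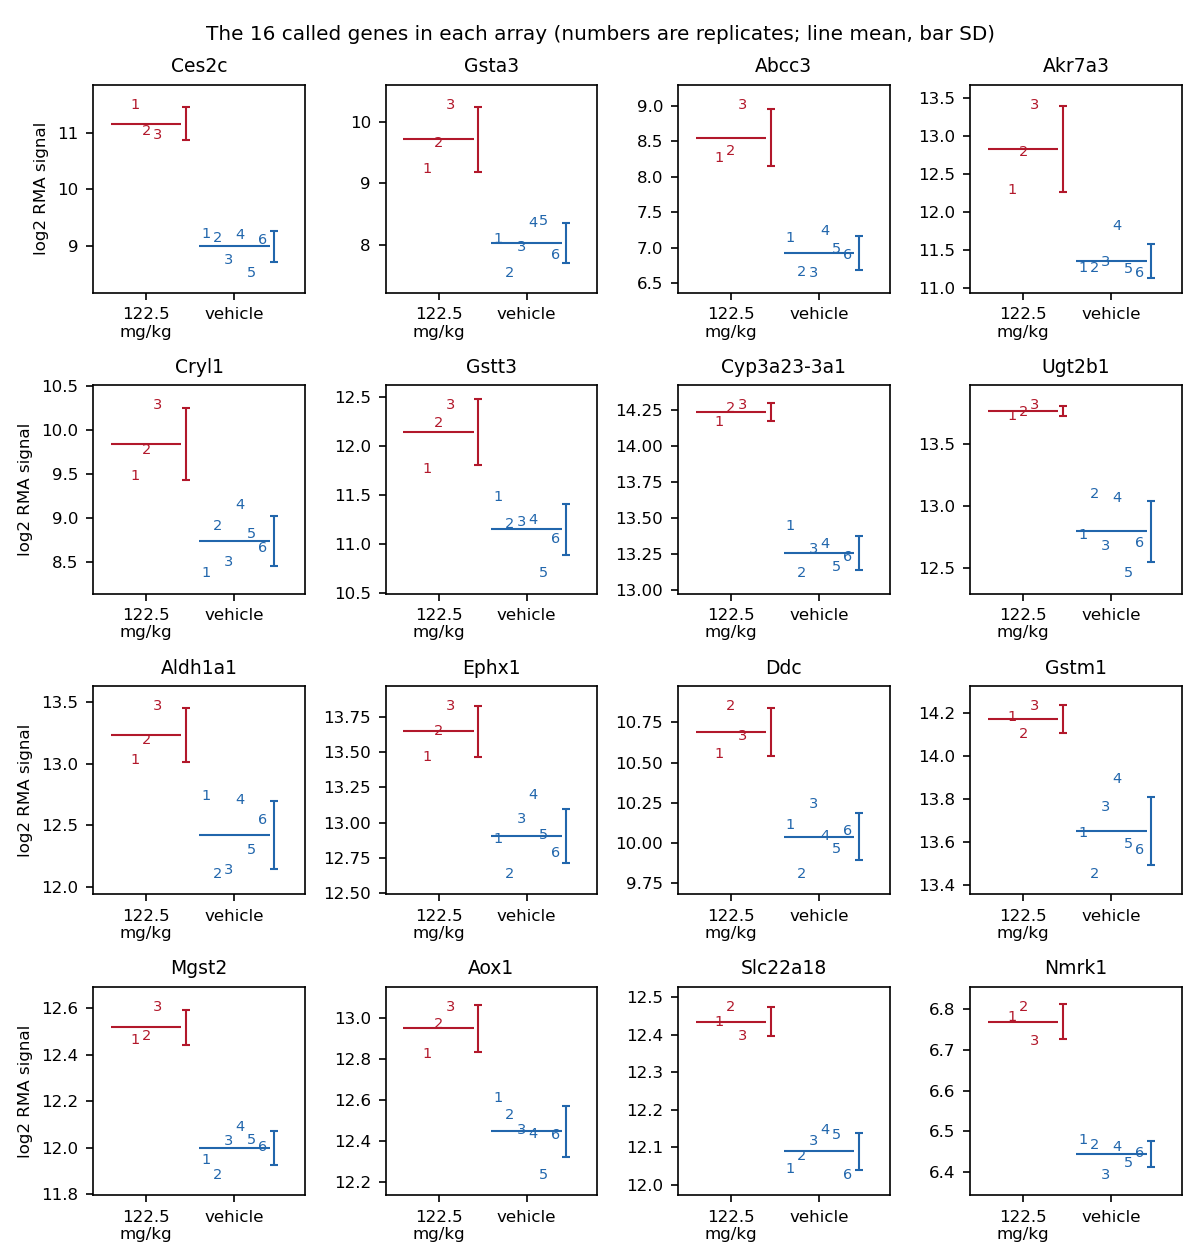
Log2 RMA signal (vertical axes, each with its own range) of the 16 called genes at 122.5 mg/kg (red, 3 arrays) and in vehicle (blue, 6 arrays). Numbers are replicates, lines are means and bars are SD. No treated array overlaps the vehicle arrays, in genes that were called on these same arrays. Replicate 3 is the highest treated array in 12 of the 16 genes.

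Treated replicate 3 was the highest of the 3 arrays in 12 of the 16 called genes and replicate 1 the lowest in 12. The order was the other way round for Ces2c, and replicate 2 was highest for Ddc, Slc22a18 and Nmrk1.

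No gene that was lower at 122.5 mg/kg passed the test over all arrays, and with array weights 145 did. The nearest was Slc6a6, the taurine transporter, at 8.58, 9.38 and 8.12 at 122.5 mg/kg, against 9.77, 9.97 and 10.48 as the lowest, median and highest vehicle values. All treated arrays were below all vehicle arrays, with replicate 2 closest to them. The difference was -1.37 ± 0.27 (SE; limma adjusted p = 0.0501), and Slc6a6 was called as lower when genes under the median level were left out (limma adjusted p = 0.0345), with array weights (0.0364) and without 122.5 mg/kg replicate 2 (0.0198). Without replicate 3 the adjusted p was 0.611. Fcna, a ficolin, was called as lower with only the arrays of the contrast (limma adjusted p = 0.029), against a difference of -0.58 and an adjusted p of 0.728 over all arrays. Rfx4, a transcription factor, was called as lower without 122.5 mg/kg replicate 1 (limma adjusted p = 0.0319), against a difference of -0.75 and an adjusted p of 0.813 over all arrays. Both were named after their values were seen. Angptl4, an inhibitor of lipoprotein lipase, read 10.65, 10.34 and 10.57 at 122.5 mg/kg, against 10.98, 11.33 and 11.98 in vehicle, a difference of -0.89 (limma adjusted p = 0.123). Nfil3, a circadian transcriptional repressor, read 9.80, 9.68 and 9.46 against 10.00, 10.27 and 10.68 in vehicle, a difference of -0.68 (limma adjusted p = 0.152). The groups of Angptl4 and of Nfil3 did not overlap.

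Other lower values with small p were those of Slc7a8, a neutral amino acid transporter (-0.33, limma adjusted p = 0.113), Fzd4, a Wnt receptor (-0.68, 0.122), the hydrolase Abhd2 (-0.48, 0.123), Popdc2 (-0.60, 0.189), the carbohydrate kinase Fggy (-0.30, 0.299), the phosphate transporter Slc34a2 (-0.77, 0.32) and Gnmt, which methylates glycine (-0.50, 0.427). In these 7 genes the treated arrays were below vehicle except in Slc34a2, where the groups overlapped. Over all genes 3.05% had groups that did not overlap, in either direction. The 7 genes, like Slc6a6, Angptl4 and Nfil3, were among those of smallest p on these same arrays. The gap is therefore no separate support for a fall.

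The called genes were set against lists of related genes, of which 8 of 46 held a call and 38 held none. Only 11 of the called genes were in a list and 5 were in none. Some, such as Ugt2b1 and Gstm1, were in several lists, so the lists with a call are not separate results. Of 27 measured CAR and PXR targets 7 rose, against 0.113% of all genes called. An unadjusted p below 0.05 was found in 13, all higher, against 6.06% of all genes. The list's median difference was 0.21 against -0.0025 over all genes, and 18 members were above 0. Its mean per array, relative to the vehicle mean, was 0.35, 0.35 and 0.46 at 122.5 mg/kg, and between -0.10 and 0.13 in vehicle. Alas1, the first enzyme of haem synthesis, differed by 0.20 (95% interval -0.20 to 0.60, limma adjusted p = 0.932), and Akr1b7, an aldose reductase-like gene, by -0.27 (95% interval -1.76 to 1.21, limma adjusted p = 0.973). Vehicle Akr1b7 alone ranged from 4.48 to 6.82. Cyp2b1 and Cyp2b2 were not analysed here.

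Of 28 measured genes of the NRF2 and glutathione synthesis list 2 rose, Akr7a3 and Ephx1, against 0.113% of all genes called. An unadjusted p below 0.05 was found in 11, all higher, against 6.06% of all genes, and the list median was 0.16. The list mean was 0.20, 0.27 and 0.39 at 122.5 mg/kg and between -0.07 and 0.07 in vehicle. Gsr, which regenerates reduced glutathione, read 7.95, 8.50 and 8.87 at 122.5 mg/kg against 7.50 to 8.05 in vehicle, a difference of 0.70 (limma adjusted p = 0.113) with replicate 1 inside the vehicle range. Pir, pirin, differed by 0.58 (limma adjusted p = 0.06) and Me1, malic enzyme, by 0.85 (limma adjusted p = 0.123). Nqo1, a quinone reductase widely used as a marker of this response, read 9.31, 9.30 and 9.80 at 122.5 mg/kg against 8.73 to 9.05 in vehicle. Its groups did not overlap, and its difference of 0.54 was not called (95% interval 0.02 to 1.06, limma adjusted p = 0.809).

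Among 17 measured genes of thyroid hormone handling and response Ugt2b1 was the only call, and the median difference was -0.03. The aryl hydrocarbon receptor and PPARA lists had 0 calls. Among 9 measured aryl hydrocarbon receptor targets the median difference was -0.03. Cyp1a1, the most responsive gene of that pathway, read 5.72, 6.06 and 6.32 at 122.5 mg/kg against 5.58 to 6.12 in vehicle, a difference of 0.14 (95% interval -0.51 to 0.79, limma adjusted p = 0.966). Cyp1a2 differed by -0.33 (limma adjusted p = 0.703). Among 33 CYP4 and PPARA targets, which include genes of fatty acid oxidation and of lipid droplets, 24 were below 0 with a median of -0.09. Cyp4a1 and Cyp4a3, fatty acid hydroxylases, differed by -0.50 each (limma adjusted p = 0.868 and 0.645), Plin2, which coats lipid droplets, by -0.38 (0.684) and Pdk4, which restrains pyruvate oxidation, by -0.96 (0.691).

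Lipid synthesis genes had wide vehicle values. Of 24 cholesterol synthesis and sterol response genes 0 were called and 20 were above 0, with a median of 0.29. The list mean was 0.27, 0.26 and 0.23 at 122.5 mg/kg, inside the vehicle range of -0.33 to 0.39. Dhcr7, Fdft1 and Sc5d of that pathway differed by 0.50, 0.37 and 0.31 (limma adjusted p = 0.679, 0.694 and 0.7). Other probe sets of Sc5d, of similar brightness, differed by 0.18 and -0.17. Scd, stearoyl-CoA desaturase, had the lowest difference of all genes, at 9.80, 9.76 and 8.16 at 122.5 mg/kg against 9.76, 11.10 and 12.26 as the lowest, median and highest vehicle values. The vehicle arrays spanned more than the difference of -1.96 (95% interval -3.20 to -0.72), the groups overlapped, and Scd was not called (limma adjusted p = 0.557). Cyp7a1, the rate-limiting enzyme of bile acid synthesis, differed by 0.65 (95% interval -0.17 to 1.47, limma adjusted p = 0.903).

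**Figure D3:**
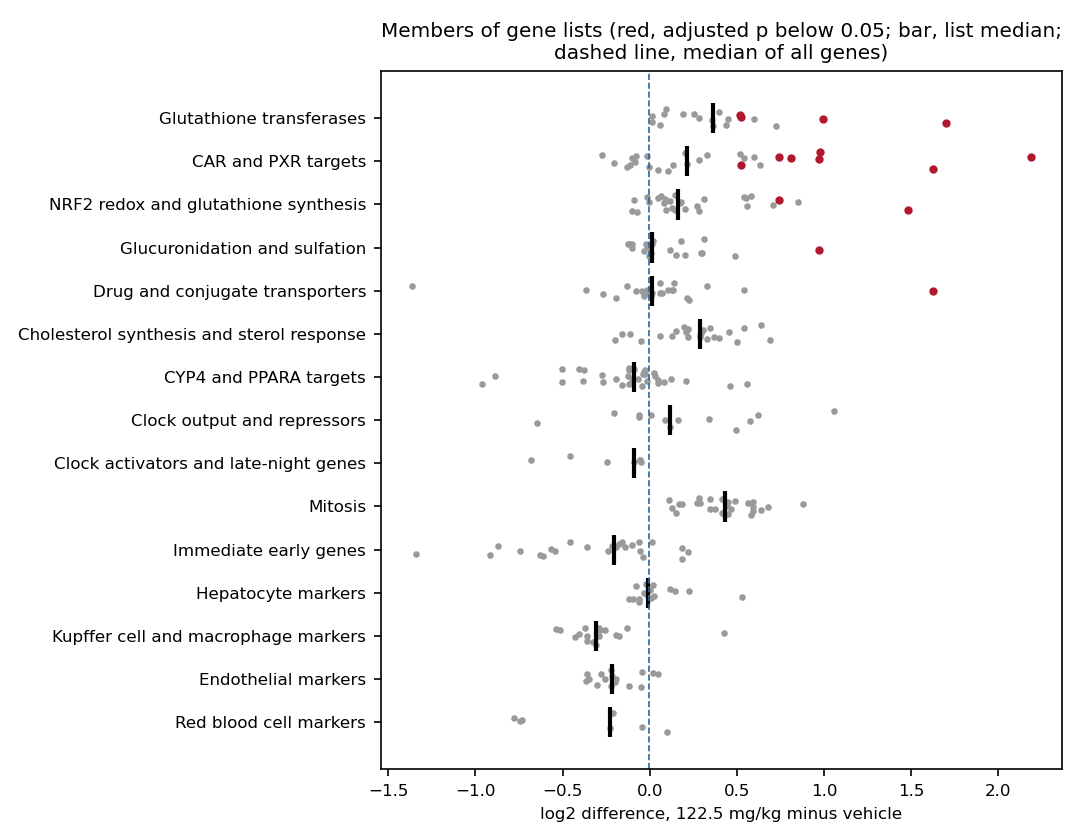
Log2 difference of 122.5 mg/kg minus vehicle (horizontal axis) for the measured members of 15 gene lists (rows). Red points are called genes, black bars are list medians and the dashed line is the median of all genes. Calls lie in the glutathione transferase, CAR and PXR, NRF2, glucuronidation and transporter lists, and Kupffer cell markers lie mostly left of 0.

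Stress and clock genes were measured with 0 calls. Ddit4, a stress-induced inhibitor of mTOR signalling, read 8.95, 8.53 and 9.18 at 122.5 mg/kg, against 6.45, 7.45 and 7.91 as the lowest, median and highest vehicle values. The groups did not overlap, with a difference of 1.58 ± 0.35 (SE) and a limma adjusted p of 0.122. Psat1 of serine synthesis, Trib3 and Asns of the ATF4 response differed by 0.69, 0.55 and 0.31 (limma adjusted p = 0.77, 0.7 and 0.929). Nr1d1, a clock repressor, read 8.19, 6.88 and 7.44 at 122.5 mg/kg against 5.77 to 6.81 in vehicle, a difference of 1.06 (limma adjusted p = 0.557). Per3 and Dbp differed by 0.58 and 0.62 and the activator Npas2 by -0.46 (limma adjusted p = 0.679, 0.906 and 0.691). Replicate 1 was the highest treated array for Nr1d1, Per3 and Dbp. Cdkn1a, a p53 target, differed by -0.62 (limma adjusted p = 0.691).

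Of 13 genes marking hepatocytes near the central vein Gstm1 rose, and 6 had an unadjusted p below 0.05, against 6.06% of all genes. The other 5 of these were lower at 122.5 mg/kg. Oat, ornithine aminotransferase, differed by -0.72 and Glul, glutamine synthetase, by -0.23 (limma adjusted p = 0.631 and 0.792). Of 17 genes of the growth hormone and IGF axis 0 were called, with differences of -0.47 for Igfbp3, -1.01 for Prlr and -0.95 for Cish (limma adjusted p = 0.591, 0.761 and 0.792).

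Markers of Kupffer cells, lymphocytes and endothelium were mostly below 0, with 0 calls. In bulk tissue fewer cells of a type and less RNA per cell cannot be told apart. Of 17 measured Kupffer cell and macrophage markers 16 were below 0, with a median difference of -0.31. Their mean per array was -0.18, -0.32 and -0.35 at 122.5 mg/kg, against -0.28, 0.02 and 0.14 as the lowest, median and highest vehicle values, so that vehicle replicate 5 lay inside the treated range. Their summed log2 level ran from 13.92 to 14.12 at 122.5 mg/kg and from 13.94 to 14.37 in vehicle. Cd163, a haemoglobin scavenger receptor, read 8.23, 7.86 and 7.95 against 8.31 to 8.79 in vehicle (difference -0.51, limma adjusted p = 0.703), whereas Cd14, a lipopolysaccharide co-receptor, differed by 0.43 (limma adjusted p = 0.713). Of the 20 lymphocyte and 16 endothelial markers 18 and 14 were below 0, with medians of -0.16 and -0.22. Of the 21 stellate, 10 neutrophil and 8 bile duct markers 14, 6 and 5 were below 0, with medians of -0.16, -0.13 and -0.01, and 0 were called.

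The 7 red blood cell markers had a median of -0.23 and means of -0.75, -0.14 and -0.24 at 122.5 mg/kg, against -0.46 to 0.27 in vehicle. Hbb, beta globin, read 11.57, 13.06 and 12.83 at 122.5 mg/kg, against 12.34, 13.40 and 13.72 as the lowest, median and highest vehicle values (limma adjusted p = 0.787). Hba-a3 and Alas2 differed by -0.73 and -0.74 (limma adjusted p = 0.78 and 0.8). Endothelial markers were at -0.45, -0.02 and -0.11 in the same arrays and at -0.36 in vehicle replicate 1. Replicate 1 was thus the lowest treated array for both lists, and it was also the lowest treated array in 12 of the 16 called genes. Whether these markers have a part in the rises was not tested. Of 24 measured immediate early genes 0 were called and 20 were below 0. In 9 of the 24 the unadjusted p was below 0.05, with 8 of these lower, against 6.06% of all genes. The list means were -0.21, -0.34 and -0.43 at 122.5 mg/kg against -0.21 to 0.48 in vehicle, where replicate 6 was the highest. Ier2 and Klf10 of that list differed by -0.63 and -0.91 (limma adjusted p = 0.476 and 0.684).

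Against the neighbouring doses no gene was called. For 122.5 mg/kg minus 61.2 mg/kg 0 genes, 0%, passed (limma), the smallest adjusted p was 0.95, and 674 genes, 4.74%, had an unadjusted p below 0.05. For 122.5 mg/kg minus 244.6 mg/kg 0 genes, 0%, passed, the smallest adjusted p was 0.152, and 677 genes, 4.76%, had an unadjusted p below 0.05. Without 244.6 mg/kg replicate 3, 32 genes were called after adjustment, all lower at 122.5 mg/kg. The mean of every called gene was higher at 122.5 mg/kg than at 61.2 mg/kg, and 15 of 16 were lower at 122.5 mg/kg than at 244.6 mg/kg, with Slc22a18 the exception. The genes were called for high values in the 122.5 mg/kg arrays. That choice favours the order against 61.2 mg/kg, which is therefore no test of dose. Ces2c differed from 61.2 mg/kg by 0.95 (95% interval 0.32 to 1.57) and from 244.6 mg/kg by -0.59 (-1.21 to 0.03). Abcc3 differed from them by 0.95 (0.23 to 1.67) and -1.26 (-1.98 to -0.54), Gsta3 by 0.23 (-0.32 to 0.79) and -0.98 (-1.54 to -0.43), and Ugt2b1 by 0.13 (-0.14 to 0.40) and -0.27 (-0.54 to 0.00). Slc6a6 differed by -0.91 (-1.55 to -0.26) and 1.10 (0.45 to 1.75).

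The comparisons of the other doses with vehicle used the same 6 vehicle arrays, so their values stand side by side without a test. They called 2 genes (0.0141%), Gsta3 and Ugt2b1, at 61.2 mg/kg. The count was 420 (2.95%) at 244.6, 412 (2.9%) at 489.2 and 1457 (10.2%) at 978.5 mg/kg. The difference of Ces2c from vehicle was 1.24, 2.19, 2.78, 3.32 and 3.79 at 61.2, 122.5, 244.6, 489.2 and 978.5 mg/kg. Abcc3 gave 0.67, 1.62, 2.89, 3.24 and 3.50 over the same doses and Slc6a6 -0.46, -1.37, -2.46, -2.77 and -3.71. These 3 genes moved further from vehicle at each dose, as did others, such as Ugt2b1, Cryl1, Aox1 and Nfil3. Akr7a3, at 1.10, 1.48, 2.02, 1.26 and 1.47, and Ddc, at 0.48, 0.65, 0.82, 0.51 and 0.83, were not ordered by dose. Cyp1a1 was at -0.07 and 0.14 at 61.2 and 122.5 mg/kg, and at 0.50, 1.78 and 2.24 at the higher doses. Fzd4, at -0.17, -0.68, -0.22, -0.53 and -0.15 from the lowest dose to the highest, had its lowest value at 122.5 mg/kg. It was named for its small p at that dose, a choice that favours this order. The dimmer probe set of Fzd4, with a vehicle mean of 5.17, differed by -0.15 at 122.5 mg/kg.

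**Figure D4:**
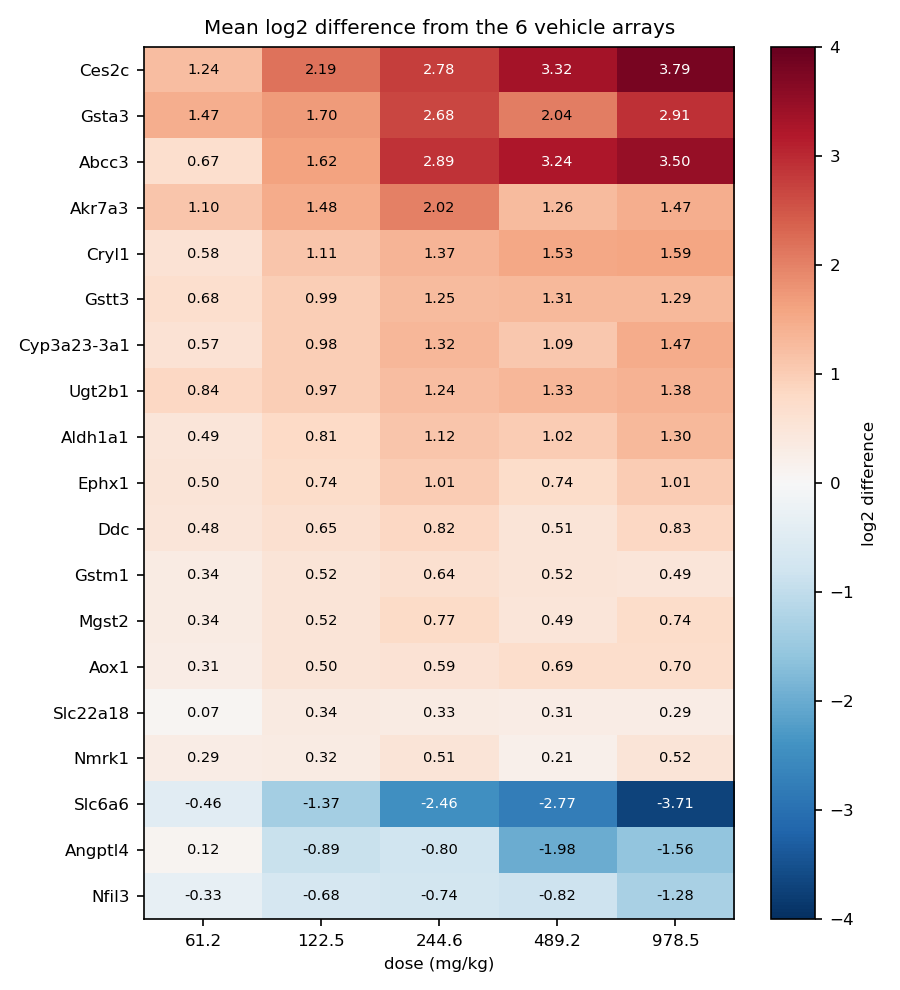
Mean log2 difference from the 6 shared vehicle arrays (colour and printed value) of the 16 called genes and 3 genes that were lower but not called (rows) at each dose in mg/kg (columns, low to high). Values at 122.5 mg/kg exceed those at 61.2 mg/kg in every called gene, an order that calling the genes on the 122.5 mg/kg arrays favours.

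Mitosis genes had the largest median difference between 122.5 and 244.6 mg/kg of the 46 lists. Their mean difference from vehicle was 0.36, 0.42, 1.965, -0.31 and 0.35 at 61.2, 122.5, 244.6, 489.2 and 978.5 mg/kg. The group at 244.6 mg/kg was thus the highest, and the mean at 122.5 mg/kg was near those at 61.2 and 978.5 mg/kg. Against 244.6 mg/kg all 28 measured members were lower at 122.5 mg/kg with an unadjusted p below 0.05, against 4.76% of all genes in either direction. In 26 of them all 122.5 mg/kg arrays were below all 244.6 mg/kg arrays, against 11.1% of all genes in either direction. The median difference was -1.50, and 0 were called after adjustment over all genes. Without 244.6 mg/kg replicate 3, 32 of all 14218 genes were called, and 5 of these were mitosis genes. With a floor at the 20th percentile 3 of 11 called genes were mitosis genes, and with array weights 19 of 477. Of 27 DNA replication genes 25 were lower at 122.5 mg/kg than at 244.6 mg/kg, with a median of -0.42. With array weights 16 of the 477 called genes were DNA replication genes, and without 244.6 mg/kg replicate 3, 3 of the 32 were. Against vehicle all 28 mitosis genes were above 0 with a median of 0.43, and none had an unadjusted p below 0.05. The list mean was -0.65, 0.78 and 1.12 at 122.5 mg/kg, against -0.62, 0.01 and 0.58 as the lowest, median and highest vehicle values. Replicate 1 lay below every vehicle array and replicates 2 and 3 above all of them. Cdk1, the mitotic kinase, read 5.61, 7.77 and 8.16 at 122.5 mg/kg against 5.17 to 7.16 in vehicle. Its difference was 0.88 (95% interval -0.37 to 2.13, limma adjusted p = 0.903). Ube2c and Birc5, an anaphase ubiquitin-conjugating enzyme and survivin, followed the same order of arrays, with differences of 0.59 and 0.45 (limma adjusted p = 0.903 and 0.898).

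**Figure D5:**
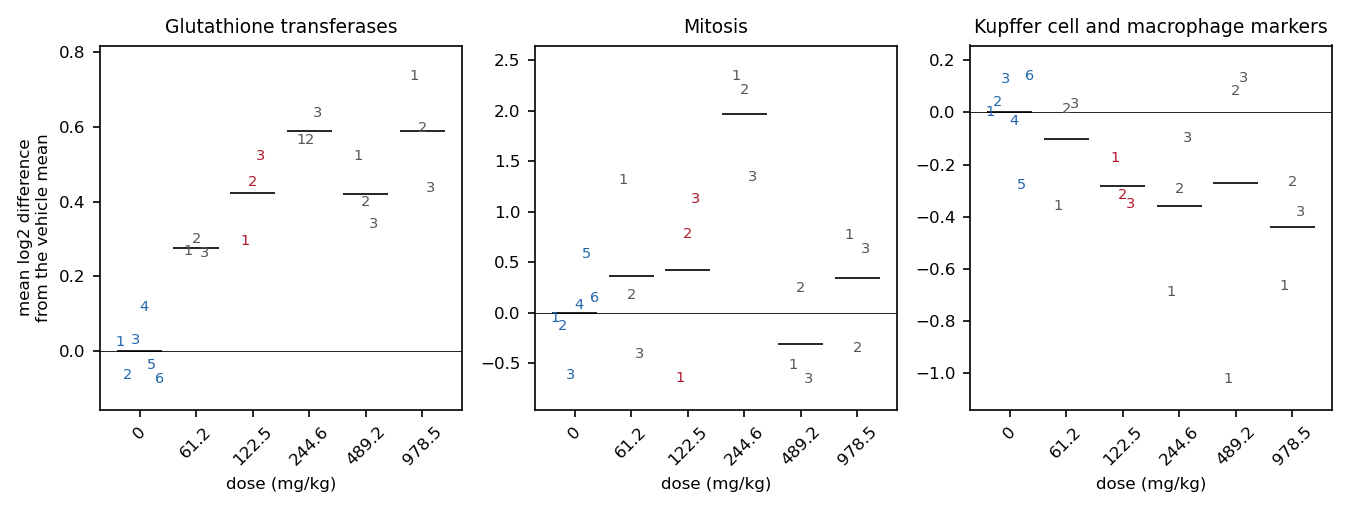
Mean log2 difference from the vehicle mean (vertical axes) over the glutathione transferase, mitosis and Kupffer cell lists in each array, by dose in mg/kg (horizontal axes; vehicle blue, 122.5 mg/kg red). Numbers are replicates and lines are group means. The transferase means at 122.5 mg/kg are 0.30, 0.45 and 0.52, above vehicle, while the mitosis means spread from -0.65 to 1.12.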

How the data were processed

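Liver RNA was hybridised to single-colour Affymetrix rat arrays, with 100 ng of total RNA per sample. The deposited values are log2 signals that the authors made by robust multi-array averaging (RMA) per the submitters' processing notes; the RMA version is not given in the sources used here. The table held 31099 probe sets, of which 20832 carried 1 gene, 436 several and 9831 none in GEO's probe table. Each of 14218 genes was represented by its probe set with the highest mean over 21 arrays, and 4526 genes had 2 or more. Symbols were updated through RefSeq gene IDs. No further scaling or filter was applied.

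Differences were fitted with limma 3.58.1 in R 4.3.3, giving each group its own mean (21 arrays, 15 residual degrees of freedom), and p-values were Benjamini-Hochberg adjusted over all genes of a comparison at 0.05. Fold changes are ratios of geometric means, and 3 arrays per dose limit the precision. The labels list each array as a separate sample of a group. The p-values set each difference against the spread between samples within groups, estimated over all 21 arrays and so also from doses outside a comparison. The fit was tested on simulated data. Python 3.11.15, pandas 2.3.3 and matplotlib 3.10.9 served for tables and plots.

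The named genes, the 46 gene lists and the tests were chosen with earlier results of these data known. The rule named every called gene, filled 15 places in each direction with the uncalled genes of smallest p, and added up to 4 members per list and a set of known genes. Of its 190 genes 71 are described, the others being left out for length. Lists are given by counts and medians with no test. Replicate numbers were checked for pairing and did not pair the samples of 122.5 mg/kg with those of vehicle, 61.2 or 244.6 mg/kg. Alternatives covered probe set choice, level filters, a floor, eBayes options, array weights, scaling, the arrays used, a replicate block and each array left out. Of the 21 arrays every sample column was used.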

Additional observations from a re-analysis of the deposited data

Results flagged for a closer look

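In each of these results 1 vehicle array stood apart from the other 5, by a gap that exceeded Dixon's critical value as a share of the group's range. Chance flags about 1 in 20 groups. The gap was looked for in the 71 named genes and the 46 list means, so the number of flags is close to what chance gives. Akr7a3 was at 11.81 in vehicle replicate 4, above the other vehicle arrays and below the 122.5 mg/kg arrays. Per3 was at 4.83 in vehicle replicate 2 and Hbb at 12.34 in vehicle replicate 1, both below the other vehicle arrays. Vehicle replicate 6 held the other 3. Klf10 was at 10.25 there, the mean of the acute phase genes at 0.41 (0.405) above the vehicle mean and the mean of the neutrophil markers at 0.41 above it.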

How the results depend on the processing

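The count of 16 calls against vehicle stayed within 1.5 times under 10 settings (11 to 20 calls) and moved under the others. It was 10 with a floor at the 20th percentile, 8 with only the arrays of the contrast, and 357 (212 higher, 145 lower) with array weights, where 122.5 mg/kg replicate 2 had a weight of 6.19 and replicates 1 and 3 had 0.633 and 0.573. Leaving out single arrays gave 4 to 17. Replicate numbers did not pair the samples of 122.5 mg/kg and vehicle (correlations 0.0835, 0.0603 and -0.144), and with the replicate block 4 genes were called. Against 61.2 mg/kg the count was 0 in every setting. Against 244.6 mg/kg it was 11 with the floor, 477 with array weights and 0 to 32 over the arrays left out. The cause was not tested. Among the 71 named genes the difference changed sign in 6 values: Alas1 at -0.17 with the replicate block, Cyp1a1 at -0.000345 without 122.5 mg/kg replicate 3 (up to 0.30 over the arrays left out), Asns at -0.0545 with array weights, and Akr1b7 at 0.22 with the replicate block and from -0.68 to 0.0417 over the arrays left out (0.00689 without 122.5 mg/kg replicate 2). Calls were lost in 107 values, all of called genes, and gained in 26. Signals near the array floor, such as those of Cyp1a1, limit what can be seen of low genes.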
